A study of Mus musculus with 8 samples.

Results

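Myosin II is the contractile motor of nonmuscle and smooth muscle cells. The genes described are its 4 heavy chains (Myh9, Myh10, Myh14 and Myh11), the essential light chain Myl6, the regulatory light chains Myl9, Myl12a and Myl12b, the light chain kinase Mylk and the phosphatase targeting subunit Ppp1r12a. They were taken by symbol, as 10 of the 23238 gene symbols in the count tables, and all 10 were detected. The list was chosen by the levels of these genes in the same 8 libraries and their differences between the groups, which were already known, so those differences are given as descriptions with no p-value.

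RNA on tagged endothelial ribosomes, pulled down from the lungs of C57BL/6J mice, was profiled by 3′ tag sequencing. The first group, called Sox17-deleted hypoxic here, carried Cdh5-CreERT2, Sox17fl/fl and RPL22tm1.1Psam, and was held in hypoxia for 3 weeks from 10 weeks of age (4 libraries). The control group carried Cdh5-CreERT2 and RPL22tm1.1Psam without the floxed Sox17 allele, and was held in room air for the same time (4 libraries). Tamoxifen (2 mg a day, 5 days, at 8 weeks of age) was given to both groups and activates the Cdh5-driven, endothelial Cre recombinase and with it the HA tag on ribosomal protein RPL22. Genotype and oxygen differ together, so their effects cannot be told apart. In such bulk RNA, fewer cells of a type and less RNA per cell cannot be told apart either.

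Each myosin II molecule pairs heavy chains, which hold the ATP-driven motor and the coiled-coil tail, with an essential and a regulatory light chain at the neck of each head. Phosphorylation of the regulatory light chain by myosin light chain kinase or the ROCK kinases lets the molecules assemble into filaments and pull on actin, and myosin phosphatase reverses it. In endothelium this contraction opens cell junctions, and Myh9, which encodes nonmuscle myosin IIA, is the usual endothelial heavy chain. Myh10 encodes nonmuscle myosin IIB, Myh14 encodes nonmuscle myosin IIC, best known from epithelia, and Myh11 encodes the heavy chain of smooth muscle.

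Because Myh9, Myh10 and Myh14 were high in the same Sox17-deleted hypoxic libraries and Myl12a was low there, the promoters of these genes are shown. RefSeq sequences (GRCm38.p6) run 5′ to 3′ on the gene's strand from 250 bases before to 50 after the start, at chr15:77842126-77842425 (minus strand) for Myh9, chr11:68691665-68691964 (plus strand) for Myh10, chr7:44670794-44671093 (minus strand) for Myh14 and chr17:71002484-71002783 (minus strand) for Myl12a. Capitals mark matches on either strand to the GC box GGGCGG, the CCAAT box, the hypoxia response core ACGTG, the SOX core ACAAT or the CArG box, the site of serum response factor.
Myh9: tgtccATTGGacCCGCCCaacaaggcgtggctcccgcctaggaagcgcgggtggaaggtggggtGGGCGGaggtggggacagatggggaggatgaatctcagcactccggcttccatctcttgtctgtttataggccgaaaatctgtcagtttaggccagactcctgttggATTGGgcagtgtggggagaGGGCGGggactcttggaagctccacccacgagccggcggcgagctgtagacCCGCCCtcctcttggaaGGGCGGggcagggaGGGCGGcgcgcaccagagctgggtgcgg
Myh10: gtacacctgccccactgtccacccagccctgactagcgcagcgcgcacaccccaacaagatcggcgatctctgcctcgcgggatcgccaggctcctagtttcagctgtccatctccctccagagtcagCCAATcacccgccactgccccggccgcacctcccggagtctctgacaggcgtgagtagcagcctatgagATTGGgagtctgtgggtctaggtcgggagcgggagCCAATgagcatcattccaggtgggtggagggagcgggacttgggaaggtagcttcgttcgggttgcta
Myh14: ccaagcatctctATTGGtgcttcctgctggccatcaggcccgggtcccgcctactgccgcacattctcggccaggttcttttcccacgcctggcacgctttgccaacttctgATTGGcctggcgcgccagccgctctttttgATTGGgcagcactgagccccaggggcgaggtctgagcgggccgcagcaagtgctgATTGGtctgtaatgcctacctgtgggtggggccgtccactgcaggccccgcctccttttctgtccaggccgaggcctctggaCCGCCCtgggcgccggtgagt
Myl12a: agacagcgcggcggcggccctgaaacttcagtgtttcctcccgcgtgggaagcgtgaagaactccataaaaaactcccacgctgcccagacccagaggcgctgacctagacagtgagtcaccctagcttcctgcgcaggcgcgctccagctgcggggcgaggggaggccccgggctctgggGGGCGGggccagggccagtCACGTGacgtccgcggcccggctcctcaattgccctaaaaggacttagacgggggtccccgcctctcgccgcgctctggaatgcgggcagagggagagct

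The 3 heavy chain promoters held 2, 3 and 4 CCAAT boxes in Myh9, Myh10 and Myh14, a motif found in 37.4% of the 32851 promoters in the table. The GC box, found in 35.7% of all promoters, matched 6 times in Myh9, 1 time in Myh14 and 0 times in Myh10. None of the 3 held the SOX core ACAAT (31.0% of all promoters), the hypoxia core in the form ACGTG (19.6%) or a CArG box (1.63%). Other forms of these cores, such as GCGTG, were not searched, so their absence is not shown. In Myl12a the hypoxia core matched on both strands at overlapping positions, which reads as CACGTG. Myh11 had no promoter in the table. Of the 9 members that had, a CArG box was found in Myl9 and in the second of 2 Myl6 promoters. The hypoxia core was also found in Mylk, whose window (chr16:34784700-34784999) lies inside the gene's span and not at its outer start. These are matches of letters in this window, not binding sites.

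In GRCm38 (GENCODE M21), the genes span chr15:77760587-77842175 (Myh9), chr11:68691559-68816632 (Myh10), chr7:44605803-44670843 (Myh14), chr16:14194535-14291372 (Myh11), chr10:128490860-128494145 (Myl6), chr2:156775420-156781658 (Myl9), chr17:70993656-71002878 (Myl12a), chr17:70973133-70990890 (Myl12b), chr16:34745210-35002420 (Mylk) and chr10:108162193-108284475 (Ppp1r12a). Reads of a 3′ tag kit fall mostly at the last exon and 3′ UTR. How the authors' counting used strand and overlapping genes is not given. Reads of Mylk can therefore not be told apart from those of Gm21691, which overlaps its 3′ end.

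Library totals ran from 7000313 to 12913304 counts in Sox17-deleted hypoxic libraries and from 10567561 to 11884614 in controls, so that 3 counts, taken as the floor, are 0.232 to 0.429 CPM (counts-per-million of the library total). Genes with at least 1 count numbered 8019 to 8708 in Sox17-deleted hypoxic libraries and 9821 to 10429 in controls. The deleted gene Sox17 was at 36.6, 3.28, 0.857 and 3.67 CPM in Sox17-deleted hypoxic libraries 1 to 4 and at 205 to 291 CPM in controls, but whether the deleted part includes the sequenced 3′ end is not given. The 15 pan-endothelial markers, all detected, summed to 7498 to 12369 CPM in Sox17-deleted hypoxia and 10392 to 11807 CPM in controls. Of the 15, 5 had a higher mean in Sox17-deleted hypoxia and 10 a lower one. The lowest sum, below every control, was that of library 4, where the heavy chains were highest. Singled out after their values were seen, Eng (67.6 to 299 CPM in Sox17-deleted hypoxia, 346 to 545 CPM in controls) and Erg (3.05 to 202 CPM in Sox17-deleted hypoxia, 204 to 291 CPM in controls) were lower without overlap, Erg only narrowly. Among all 8282 genes tested, 4.96% were lower without overlap. Egfl7, the most abundant of the list, averaged 2812 CPM in Sox17-deleted hypoxia and 1883 CPM in controls. The part of these marker levels in the results was not tested. Sox17-deleted hypoxic libraries 2, 3 and 4 share a stem in their deposited column headers and library 1 does not. What the stem marks is not given, and no pair of the 8 libraries agreed within sampling noise (smallest chi-square per degree of freedom 188, over genes with at least 10 counts in the pair).

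All 4 heavy chains had higher mean levels in the Sox17-deleted hypoxic libraries, and the highest levels were in libraries 2, 3 and 4, with the exception of Myh11 in library 3. Myh9 was at 481, 1341, 3017 and 4358 CPM in Sox17-deleted hypoxic libraries 1 to 4, against 242, 378, 337 and 326 CPM in control libraries 1 to 4. All 4 Sox17-deleted hypoxic libraries lay above all controls but differed widely among themselves, library 4 being highest and library 1 lowest, while the controls lay close together. The means were 2299 ± 1730 CPM in Sox17-deleted hypoxia and 321 ± 57.0 CPM in controls (SD, n = 4 each), and the edgeR log2 fold change, Sox17-deleted hypoxia minus control, was 2.87 (SE 0.54). Among all 8282 genes tested, groups that did not overlap and were higher in Sox17-deleted hypoxia made up 1.63%, and Myh9 was the only member of that kind.

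Myh14 was at 55.1, 618, 717 and 2251 CPM in Sox17-deleted hypoxic libraries 1 to 4, against 45.7, 111, 55.1 and 11.4 CPM in control libraries 1 to 4. Library 1 lay within the control range, and the other 3 were above every control. The log2 fold change was 4.01 (SE 0.89).

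Myh10 was at 0.697, 254, 281 and 396 CPM in Sox17-deleted hypoxic libraries 1 to 4, against 9.94, 20.9, 58.5 and 21.8 CPM in control libraries 1 to 4. Here library 1, with 9 counts, lay below every control, while libraries 2, 3 and 4 were again above all of them. The log2 fold change was 3.11 (SE 1.12).

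Myh11, the smooth muscle heavy chain, was at 71.4, 210, 3.29 and 496 CPM in Sox17-deleted hypoxic libraries 1 to 4, against 14.3, 10.5, 15.1 and 68.1 CPM in control libraries 1 to 4. Its pattern differed from that of the nonmuscle chains: library 3, high for Myh9, Myh10 and Myh14, had only 23 counts of Myh11, the lowest level of all 8 libraries. The log2 fold change was 2.82 (SE 1.10).

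**Figure D1:**
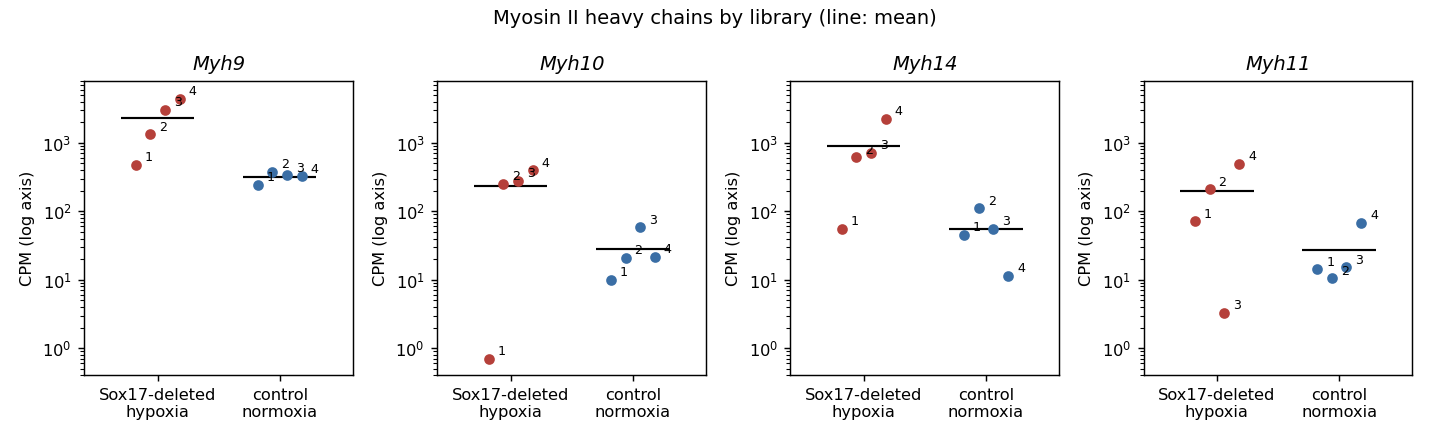
Levels of the 4 heavy chains in each library, in CPM of the library total on a log axis; numbers give the library, lines the mean of 4. Sox17-deleted hypoxic libraries 2 and 4 lie above every control for all 4 genes, library 3 for Myh9, Myh10 and Myh14, and library 1 (481 CPM of Myh9) for Myh9 and Myh11.

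Among the 2052 tested genes averaging 100 CPM or more, ranked by log2 fold change, Myh14 was first, Myh10 second, Myh9 number 5 and Myh11 number 6. The ranks describe the contrast on which the genes were chosen. Heavy chain transcripts are long, from 6499 bases (Myh14) to 7791 bases (Myh10) in their longest GENCODE M21 coding transcript. Over the 1127 tested genes with transcripts of 6000 bases or more the median log2 fold change was −0.05, and 47.9% were higher, beside −0.01 and 49.6% of the 7870 tested genes with a known length.

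The heavy chains share coding sequence, so their 3′ ends were compared. None of the 451 windows of 50 bases in the last 500 bases of Myh9, Myh10, Myh14 or Myh11 occurred exactly in a transcript of any other gene. Over whole transcripts, Myh9 and Myh10 shared 73 such windows, 0.989% of those of Myh9, Myh9 and Myh11 shared 26, Myh10 and Myh11 shared 16, and Myh14 shared none with the other 3. The library patterns were closest for Myh9 and Myh14, whose log2(CPM + 1) values, each centred on its own mean, differed by a root mean square of 1.13 over the 8 libraries. The difference was 1.69 for Myh9 and Myh10, 1.68 for Myh10 and Myh14, and 2.18 to 3.02 for Myh11 with each of the 3 nonmuscle chains. Inexact matches were not counted, and the handling of reads with several matches is not given.

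Within the heavy chain pool, Myh9 gave 79.1%, 55.3%, 75.1% and 58.1% of the summed counts in Sox17-deleted hypoxic libraries 1 to 4, against 72.3% to 77.6% in controls. A 3′ tag is read about once per transcript whatever its length, so these shares were not divided by length. Myh14 made up 9.07%, 25.5%, 17.9% and 30.0% in Sox17-deleted hypoxic libraries 1 to 4, against 14.6%, 21.3%, 11.8% and 2.66% in control libraries 1 to 4. Myh9 was thus the leading heavy chain in all 8 libraries, and the shares of the groups overlapped for both genes.

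None of the abundant light chains Myl6, Myl12a and Myl12b was above every control in each of libraries 2, 3 and 4, as the nonmuscle heavy chains were. The low Myl9 was above every control in libraries 3 and 4 only. By root mean square, Myh9 lay nearer to Myl6 (1.32), Ppp1r12a (1.44) and Mylk (1.54) than to Myh10 (1.69). The measure is not scaled to each gene's spread, so a gene that varies little can score near. These values therefore do not show that Myh9 follows Myl6, Ppp1r12a or Mylk more than Myh10. Myh9 differed by 2.07 from Myl12b and by 2.31 from Myl12a. Myl6, the essential light chain gene, was at 1070, 1516, 2787 and 1285 CPM in Sox17-deleted hypoxic libraries 1 to 4, against 1212, 1613, 1222 and 1153 CPM in control libraries 1 to 4. The groups overlapped, with library 3 of Sox17-deleted hypoxia alone above the controls, and the log2 fold change of 0.40 (SE 0.36) was −0.051 without that library.

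Myl12a, the main regulatory light chain gene by counts, was at 1422, 1038, 218 and 692 CPM in Sox17-deleted hypoxic libraries 1 to 4, against 1485, 1744, 1526 and 1362 CPM in control libraries 1 to 4. Libraries 2, 3 and 4 were below every control and library 1 was within their range. The means were 842 ± 512 CPM in Sox17-deleted hypoxia and 1529 ± 159 CPM in controls (SD, n = 4 each), with a log2 fold change of −0.87 (SE 0.43).

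Myl12b, a second regulatory light chain gene next to Myl12a on chromosome 17, was at 426, 509, 80.7 and 443 CPM in Sox17-deleted hypoxic libraries 1 to 4, against 359, 640, 531 and 471 CPM in control libraries 1 to 4. Library 3 alone was below the controls, as it was lowest for Myl12a. The log2 fold change was −0.48 (SE 0.45), and −0.16 without that library. The patterns of Myl12a and Myl12b differed by a root mean square of 0.40, the smallest of all 45 pairs of members. The pair shared 192 windows of 50 bases, 10.2% of those of Myl12a, but none in the last 500 bases. GENCODE M21 places a further transcript model named Myl12b and the noncoding gene Gm26561 across the end of Myl12a. Gm26561 also overlaps the 3′ end of Myl12b. The counts of Myl12a and Myl12b are therefore uncertain where reads could be split.

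Myl9, the regulatory light chain gene of smooth muscle, was at 21.3, 7.30, 46.3 and 61.3 CPM in Sox17-deleted hypoxic libraries 1 to 4, against 27.8, 0, 0 and 23.7 CPM in control libraries 1 to 4. The 0 counts allow up to 0.271 and 0.258 CPM in control libraries 2 and 3, counting error only. The log2 fold change of 1.42 had an SE of 2.15, and the groups overlapped.

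**Figure D2:**
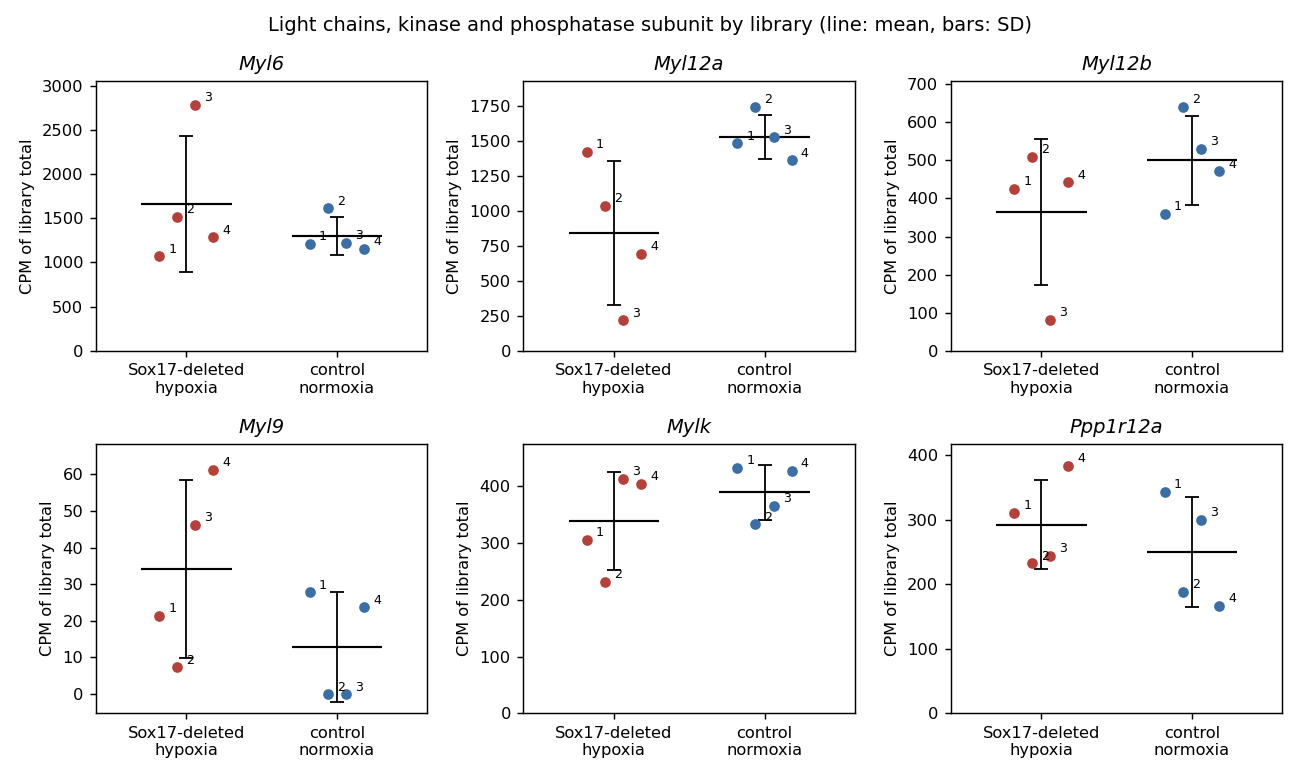
Levels of the light chains, the kinase and the phosphatase subunit in each library, in CPM of the library total; numbers give the library, lines the mean and bars the SD of 4. Sox17-deleted hypoxic library 3 is highest for Myl6 (2787 CPM) and lowest for Myl12a (218 CPM) and Myl12b (80.7 CPM).

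Summed, the 4 heavy chains were at 608, 2423, 4019 and 7501 CPM in Sox17-deleted hypoxic libraries 1 to 4, against 312, 521, 465 and 427 CPM in control libraries 1 to 4. The 4 light chains summed to 2939, 3071, 3132 and 2481 CPM in Sox17-deleted hypoxic libraries 1 to 4, against 3084, 3997, 3280 and 3010 CPM in control libraries 1 to 4. The heavy chain sums of the groups did not overlap, while the light chain sums did. Myh9, the largest part of the heavy chain sum in every library, was the only heavy chain that did not overlap by itself. The ratio of heavy to light chain counts was 0.207, 0.789, 1.28 and 3.02 in Sox17-deleted hypoxic libraries 1 to 4, against 0.101 to 0.142 in controls, a difference of 2.80 on the log2 scale, which leaving out library 4 of Sox17-deleted hypoxia lowered to 2.22 and leaving out its library 1 raised to 3.51. Within the light chains, Myl6 stood at 0.572, 0.975, 8.09 and 1.07 times the regulatory light chains in Sox17-deleted hypoxic libraries 1 to 4, against 0.594 to 0.676 times in controls.

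**Figure D3:**
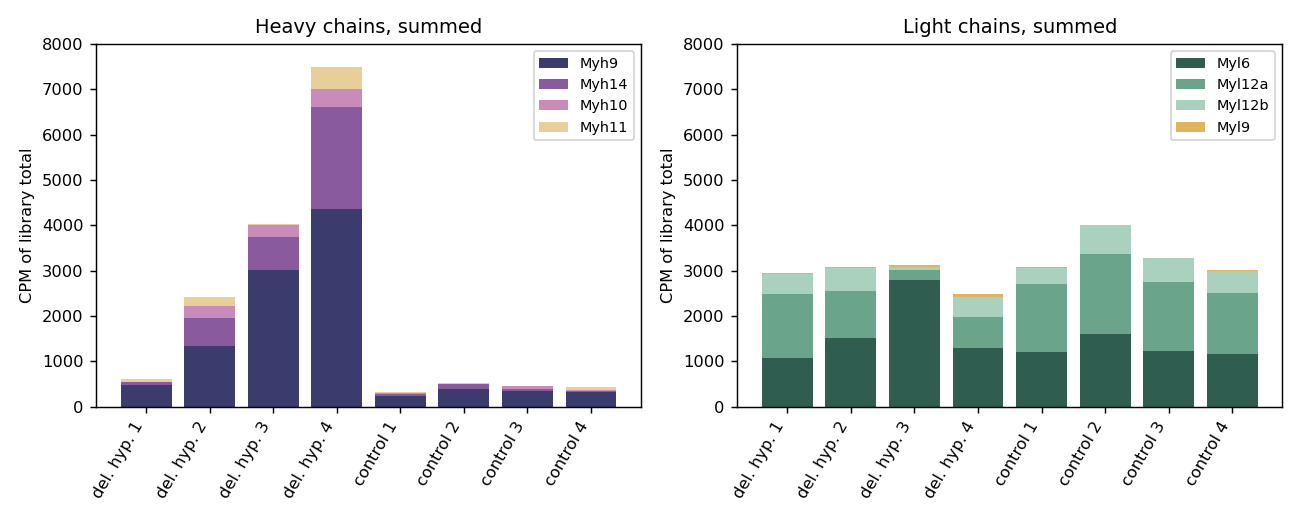
Stacked levels of heavy chains (left) and light chains (right) in each library, in CPM of the library total on the same scale; "del. hyp." is Sox17-deleted hypoxia. Heavy chains reach 7501 CPM in Sox17-deleted hypoxic library 4 and stay at 521 CPM or less in controls, while light chains lie between 2481 and 3997 CPM in all 8 libraries.

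Mylk, which encodes myosin light chain kinase, was at 306, 232, 414 and 405 CPM in Sox17-deleted hypoxic libraries 1 to 4, against 433, 333, 366 and 427 CPM in control libraries 1 to 4 (log2 fold change −0.17, SE 0.34). Ppp1r12a, which encodes the subunit that brings myosin phosphatase to myosin, was at 310, 232, 244 and 383 CPM in Sox17-deleted hypoxic libraries 1 to 4, against 343, 188, 299 and 167 CPM in control libraries 1 to 4 (log2 fold change 0.24, SE 0.38). For both genes the groups overlapped widely, and the difference was smaller than its SE. The direction of Mylk turned, to 0.033, without Sox17-deleted hypoxic library 2.

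All 10 members passed the filter on low counts, with 7 higher and 3 lower in Sox17-deleted hypoxia and a median log2 fold change of 0.91, beside −0.01 and 49.6% higher over all tested genes. A log2 fold change of at least 1 was found for 5 members, the 4 heavy chains and Myl9, beside 15.5% of all tested genes. In edgeR's quasi-likelihood test with Benjamini-Hochberg adjustment, 0 of 8282 genes (0%) passed an adjusted p of 0.05, so no member did, and 424 had an unadjusted p under that value. DESeq2 called 155 of the same genes and limma-voom 14. Without Sox17-deleted hypoxic library 1, edgeR called 5 genes.

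The other genes of the pathway were taken as 6 lists with 118 genes, of which 94 were detected and 69 tested. None of the 69 passed the edgeR test over all genes, 38 were higher and 31 lower, and the median log2 fold change was 0.17. An unadjusted edgeR p under 0.05 was found for 10 of the 69, beside 5.12% of all tested genes, and for 4 with the replicate block. The lists were chosen with earlier results of these data known, so these shares are descriptions only. DESeq2 called 2 of the 69, Limch1 higher and Arhgap35 lower, beside 1.87% of all tested genes. The groups did not overlap for 4 higher genes (Rock1, Actb, Cald1 and Limch1) and 2 lower ones (Ppp1cb and Arhgap35), beside 1.63% and 4.96% of all tested genes; these were singled out after their values were seen.

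In the list of regulatory light chain kinases and their activators, 7 of 13 tested genes were higher and 6 lower. Rock1, a kinase gene whose product phosphorylates the regulatory light chain and the phosphatase subunit, was at 418, 308, 384 and 336 CPM in Sox17-deleted hypoxic libraries 1 to 4, against 181 to 270 CPM in controls (log2 fold change 0.78, SE 0.35, edgeR adjusted p = 0.942). Calm2, which encodes a calcium sensor that activates myosin light chain kinase, averaged 322 ± 107 CPM in Sox17-deleted hypoxia and 319 ± 88.5 CPM in controls (SD, n = 4 each). The lowest fold changes among pathway genes averaging 50 CPM or more belonged to Cdc42bpa (−1.50, SE 1.17), a kinase gene of the Cdc42 branch, Pak4 (−0.95, SE 0.70), a p21-activated kinase gene, and Mprip (−0.81, SE 0.41), whose product links the phosphatase to actin. None of these passed the edgeR test.

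The phosphatase list had 2 higher and 5 lower of 7 tested. Ppp1cb, the catalytic subunit of myosin phosphatase, had 29.8, 0.212, 0.143 and 0 CPM in Sox17-deleted hypoxic libraries 1 to 4, against 34.4 to 56.3 CPM in controls (log2 fold change −2.49, SE 2.14, edgeR adjusted p = 1.00). Its levels in libraries 2, 3 and 4 were under the floor. Ppp1ca, another catalytic subunit, averaged 274 ± 83.8 CPM in Sox17-deleted hypoxia and 467 ± 65.5 CPM in controls. Rhoa, whose GTPase activates the product of Rock1, averaged 937 ± 259 CPM in Sox17-deleted hypoxia and 1058 ± 93.1 CPM in controls. Rhoc, a related GTPase gene, was at 823, 500, 2732 and 675 CPM in Sox17-deleted hypoxic libraries 1 to 4, against 456 to 987 CPM in controls, so that library 3 alone was above the controls and the other 3 were within their range. Plekhg5, an exchange factor for RhoA, averaged 188 ± 130 CPM in Sox17-deleted hypoxia and 50.7 ± 21.0 CPM in controls (log2 fold change 1.94, SE 0.67, edgeR adjusted p = 0.525), and Arhgap35, a GTPase-activating protein gene, was at 0.31, 0, 0 and 0.269 CPM in Sox17-deleted hypoxic libraries 1 to 4, at or near the floor, against 9.76 to 75.4 CPM in controls.

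Of 20 tested partners on the actin side, 11 were higher and 9 lower. Limch1, whose product binds and activates nonmuscle myosin IIA in human cells, was at 231, 339, 327 and 1027 CPM in Sox17-deleted hypoxic libraries 1 to 4, against 122 to 192 CPM in controls, and had the lowest adjusted p of the 69 (log2 fold change 1.68, SE 0.47, edgeR adjusted p = 0.346). Cald1, which encodes the actin- and myosin-binding protein caldesmon, was at 331, 648, 1201 and 569 CPM in Sox17-deleted hypoxic libraries 1 to 4, against 183 to 309 CPM in controls (log2 fold change 1.39, SE 0.42, edgeR adjusted p = 0.368). Actb, cytoplasmic beta-actin, averaged 10215 ± 3086 CPM in Sox17-deleted hypoxia and 6268 ± 204 CPM in controls. The actin-binding gene Tagln2 was at 1475, 1623, 4231 and 2281 CPM in Sox17-deleted hypoxic libraries 1 to 4, against 1787 to 2081 CPM in controls, with libraries 1 and 2 below the controls and 3 and 4 above. Cgnl1, the junction protein paracingulin, was at 38.9 to 257 CPM in Sox17-deleted hypoxic libraries, against 12.1 to 43.7 CPM in controls (log2 fold change 1.96, SE 0.88). None of these passed the edgeR test.

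The 4 tested chains of other class II myosins had 3 higher and 1 lower. Myh6, the alpha heavy chain of heart muscle, was at 0, 191, 50.1 and 307 CPM in Sox17-deleted hypoxic libraries 1 to 4, against 2.93, 11.9, 0 and 1.85 CPM in control libraries 1 to 4 (log2 fold change 4.97, SE 1.91, edgeR adjusted p = 0.687). It was thus high in libraries 2, 3 and 4 and at 0 in library 1, where Myh10 was also lowest. The other 9 cardiomyocyte markers summed to 39.7, 2.54, 43.3 and 31.6 CPM in Sox17-deleted hypoxic libraries 1 to 4, against 11.2 to 52.9 CPM in controls, with Nppa and Sln at 0 in all 8 libraries. Myh6 shared no window of 50 bases with Myh9, Myh10, Myh14 or Myh11, but 42.8% of the windows at its 3′ end occur in other genes, among them Myh7, the beta heavy chain, which averaged 31.0 ± 21.8 CPM in Sox17-deleted hypoxia and 9.24 ± 17.9 CPM in controls. The level of Myh6 is uncertain for that reason.

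Of 12 unconventional myosins 10 were higher and 2 lower, with a median log2 fold change of 0.68 and no gene past the edgeR test. Myo18a, whose product co-assembles with nonmuscle myosin II, was at 112, 679, 1052 and 789 CPM in Sox17-deleted hypoxic libraries 1 to 4, against 252, 261, 398 and 288 CPM in control libraries 1 to 4 (log2 fold change 1.18, SE 0.52, edgeR adjusted p = 0.89). Like Myh10, it was below every control in library 1 and above every control in the other 3. Myo1h, the next most abundant, averaged 406 ± 55.4 CPM in Sox17-deleted hypoxia and 428 ± 172 CPM in controls.

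**Figure D4:**
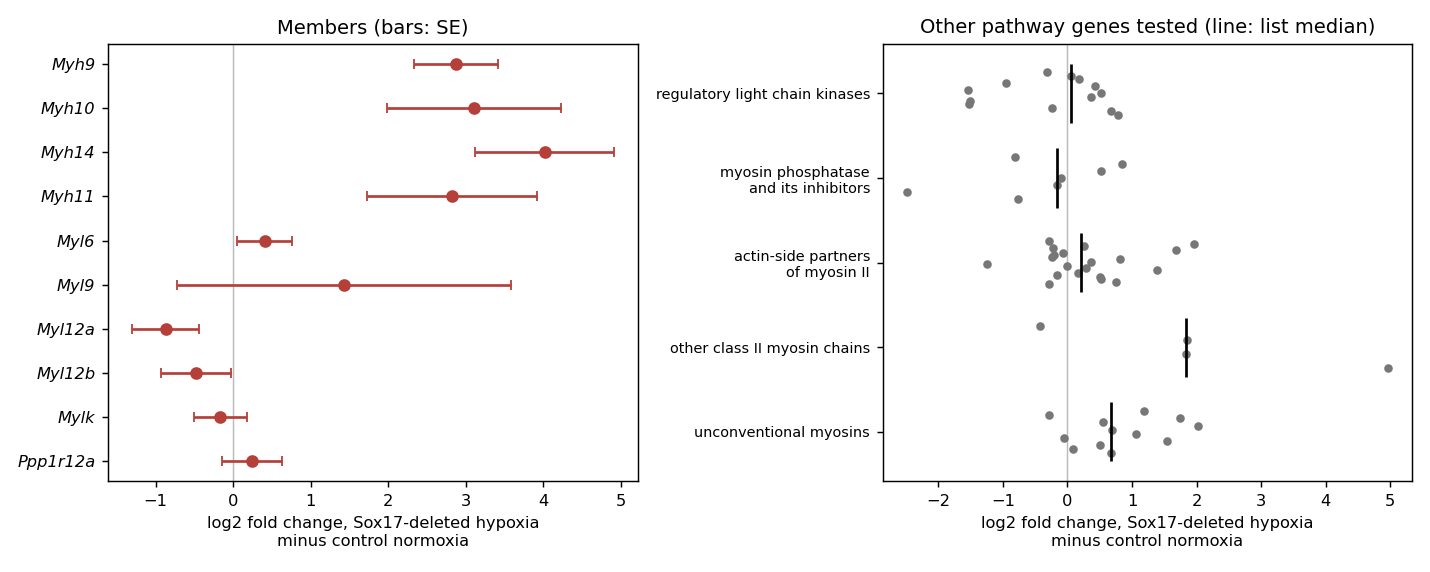
Log2 fold changes, Sox17-deleted hypoxia minus control normoxia, of the 10 members (left, bars: SE) and of the tested genes of 5 of the 6 other pathway lists (right, 1 point a gene, lines: list medians). The 4 heavy chains lie between 2.82 and 4.01, the kinase and phosphatase subunit within 0.24 of 0, and the medians of the lists shown between −0.15 and 1.84.

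Markers of cells that use these chains were compared with them. The 10 smooth muscle markers, members left out, summed to 235, 342, 436 and 325 CPM in Sox17-deleted hypoxic libraries 1 to 4, against 97.9 to 287 CPM in controls. Of the 10, 6 had a higher mean in Sox17-deleted hypoxia, and the sum was highest in library 3, where Myh11 was lowest. Most of the sum came from Pcp4l1, which averaged 99.1 CPM in Sox17-deleted hypoxia and 32.5 CPM in controls, Mustn1, at 93.7 CPM in Sox17-deleted hypoxia and 52.7 CPM in controls, and Smtn, at 98.3 CPM in Sox17-deleted hypoxia and 58.9 CPM in controls. Des, the muscle intermediate filament gene, was at 62.5 CPM in Sox17-deleted hypoxic library 4, where Myh11 was highest. It was at 0 in the other 3 and at most at 6.79 CPM in controls. In the same library 4, Smtn was at 0.269 CPM and Tagln, a further marker of the list, at 0. Tagln averaged 8.98 CPM in Sox17-deleted hypoxia and 21.1 CPM in controls. Among contractile genes of the list, Cnn1 reached at most 0.31 CPM, Lmod1 was at 0 in all 8 libraries, and Acta2 was at 4.80 to 36.1 CPM in Sox17-deleted hypoxia, against 10.8 to 35.1 CPM in controls. The 8 pericyte markers with a row summed to 0, 123, 35.9 and 34.9 CPM in Sox17-deleted hypoxic libraries 1 to 4, against 13.6 to 72.9 CPM in controls. Fibroblast markers (12) summed to 369, 1045, 117 and 840 CPM in Sox17-deleted hypoxic libraries 1 to 4, against 226 to 463 CPM in controls. Of the 12, 7 had a higher mean in Sox17-deleted hypoxia. Libraries 2 and 4 were highest for the sum and for Myh11. The largest part of the sum there was Col1a2, at 602 and 453 CPM, while Col1a1 and Dcn had lower means in Sox17-deleted hypoxia.

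Alveolar type 2 markers, 10 of 12 with a higher mean in Sox17-deleted hypoxia, summed to 2097, 4296, 2181 and 2986 CPM in Sox17-deleted hypoxic libraries 1 to 4, against 989 to 1357 CPM in controls. Markers of club and ciliated cells (9, of which 8 had a higher mean) summed to 3948 to 6092 CPM in Sox17-deleted hypoxia and 1757 to 2678 CPM in controls. Library 1 was above all controls for both lists, but was at 55.1 CPM for Myh14, within the controls. General epithelial markers summed to 127 to 314 CPM in Sox17-deleted hypoxia and 121 to 237 CPM in controls, with Epcam, Cldn4 and Elf3 at 0 in all 8 libraries. Macrophage and monocyte markers summed to 47.0 to 245 CPM in Sox17-deleted hypoxia and 28.4 to 55.8 CPM in controls, with Adgre1 at 0 in all 8 libraries. Alveolar type 1 markers (1872 to 2821 CPM in Sox17-deleted hypoxia, 2355 to 3059 CPM in controls) and neutrophil and platelet markers (29.0 to 413 CPM in Sox17-deleted hypoxia, 56.8 to 124 CPM in controls) overlapped between the groups. The part of these cell types in the levels of the myosin genes was not tested.

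**Figure D5:**
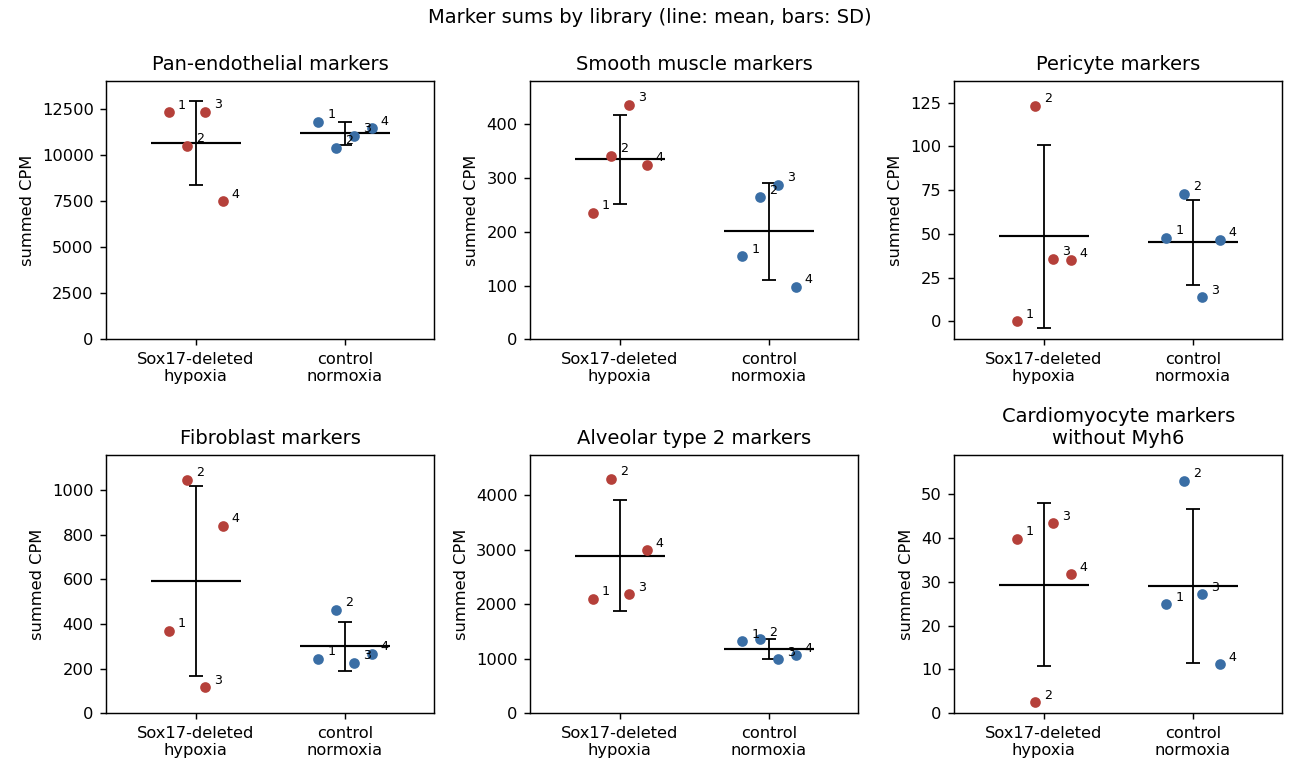
Summed CPM of marker lists in each library; numbers give the library, lines the mean and bars the SD of 4. Alveolar type 2 markers lie between 2097 and 4296 CPM in Sox17-deleted hypoxia, above all controls, while the cardiomyocyte markers other than Myh6 overlap between the groups.

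The genes outside the member list whose library pattern was nearest to Myh9, among 3696 averaging 50 CPM or more, were Arl13b, a cilium GTPase gene, Pmepa1, a TGF-beta-induced gene, and Snrnp48, a spliceosome gene. Their root-mean-square differences were 0.61, 0.62 and 0.72 on the log2 scale, where the median gene differed by 1.81. Nearest to Myh14 were Tmem265 (1.13), Arl13b (1.33) and Gsn (1.33), the gene of the actin-severing protein gelsolin, with a median of 2.61 over all genes. Gsn was at 469, 1384, 657 and 8208 CPM in Sox17-deleted hypoxic libraries 1 to 4, against 243 to 481 CPM in controls, so that library 4 led for it as for Myh14. Nearest to Myl9 were Rnf20 (0.80), Mark3 (1.04) and Gmppb (1.09), with a median of 2.45. Likeness was measured over 8 libraries that include both groups.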

How the data were processed

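Ribosome-associated RNA was immunoprecipitated by the HA tag from lung and sequenced with a QuantSeq 3′ kit, per the labels' protocols. The authors deposited unnormalized counts, whole numbers for each gene symbol. Bowtie2, bedtools and build mm10 were used, per the submitters' processing notes; versions and settings are not given in the sources used here. The 44 duplicate rows were summed by symbol. Samples were grouped by their titles. Whether libraries came from separate animals is not given, so the spread behind each p-value is that among these libraries and may be technical.

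Levels are CPM of the library total. Fits used edgeR 4.0.16 in R 4.3.3 (TMM factors, filterByExpr, group alone, quasi-likelihood F test, Benjamini-Hochberg adjustment over all genes). The fit was checked on simulated data whose spread was set and not taken from these libraries, so power at their spread is not known. The SE is the log2 fold change divided by the square root of F. DESeq2 1.42.0 and limma 3.58.1 were alternatives. Members and lists were chosen with earlier results of these data known. Named were all members; of each list the 2 most abundant genes; over the lists the 3 highest and 3 lowest fold changes from 50 CPM; and the 3 nearest patterns of Myh9, Myh14 and Myl9; a few results this rule covers are not reported here. Positions and transcripts are GENCODE M21 (GRCm38, the assembly called mm10), which gave a length for 95.0% of tested genes; promoters are RefSeq. Intervals and floors cover counting error only.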

Additional observations from a re-analysis of the deposited data

Results flagged for a closer look

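Over the 10 members, 20 groups of 4 libraries were screened for a library that stood far from the other 3, a screen that chance alone sets off in about 1 of 20 groups. It found 2. Myh11 was at 68.1 CPM in control library 4, against 10.5 to 15.1 CPM in the other 3 controls. Myl6 was at 1613 CPM in control library 2, against 1153 to 1222 CPM in the other 3. Without the control library in question, the log2 fold change was 3.83 in place of 2.82 for Myh11 and 0.54 in place of 0.40 for Myl6.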

How the results depend on the processing

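The edgeR count of genes past the threshold, 0 of 8282, stayed at 0 with RLE or upper-quartile factors, with library totals alone, without Rn45s and with the replicate block. It was 17 without a low-count filter, 4 under a stricter filter on the mean level (Cxcl12, Sparcl1, Calcrl and Hilpda), 1 with robust estimation (Cxcl12), 155 with DESeq2 (33 higher, 122 lower) and 14 with limma-voom and sample quality weights. It was 1 (Sparcl1) with Sox17-deleted hypoxic libraries 2, 3 and 4 summed into 1, a choice made after seeing the data. Leaving out single libraries gave 0 to 5, the 5 without Sox17-deleted hypoxic library 1 and including Cx3cl1, Cxcl12, Serinc3 and Sox17; no call is given for members. In the pathway lists the count was 0 in all alternatives but DESeq2, which called 2. Same-numbered libraries of the groups showed no shared deviation (correlations across genes of their deviations −0.03 to 0.02). The libraries differ widely from each other, so this check cannot exclude that the numbers mark pairs.

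The heavy chain fold changes kept their direction in all alternatives run, from 2.42 to 3.24 for Myh9, 3.11 to 4.61 for Myh14, 1.31 (limma-voom) to 3.73 for Myh10 and 1.78 (without Sox17-deleted hypoxic library 4) to 3.83 for Myh11. The heavy chain sum differed by 2.09 to 3.30 on the log2 scale with a library left out, beside 2.61 with all. With single libraries left out Myl6 ran from −0.051 (without Sox17-deleted hypoxic library 3) to 0.61 and Mylk from −0.34 to 0.033 (without library 2). Myl9, at 1.42, was 4.58 with the replicate block and 3.71 with limma-voom, fits in which the median of all genes was −0.57 and −0.70; the cause was not tested. Myl9 and Myh11 have no value under the stricter filter. The floor of 3 counts is 0.429 CPM in the shallowest library, where genes under that level could be missed.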

Other observations

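The 10 largest fold changes among the 2052 tested genes averaging 100 CPM or more, singled out after their values were seen, held the 4 heavy chains. Of the others, 5 are given here. They were Gsn (log2 fold change 3.03, SE 0.74), the gene of gelsolin, Ntrk2 (2.95, SE 0.72), a neurotrophin receptor gene, Sparcl1 (2.47, SE 0.42), a matrix glycoprotein gene, Cxcl12 (2.27, SE 0.33), a chemokine gene, and Bnip3 (2.05, SE 0.52), a mitophagy receptor gene.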
